A study of Mus musculus with 2 samples.

Results

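Desmosomes were examined through the RNA of 10 genes that encode their parts, Dsg2, Dsg3, Dsc2, Dsc3, Dsp, Jup, Pkp1, Pkp2, Pkp3 and Perp, chosen by name out of the 32285 genes counted. They were followed across the epithelial layers and cell states of the mouse esophagus at E18.5 (day of embryonic development), in 1 single-cell library labelled p63-KO and 1 labelled wild type. p63, encoded by Trp63, is a transcription factor of stratified epithelia. The p63-KO embryos had the genotype p63-CreER/p63-CreER, and their littermate controls, called wild type here, had the genotype p63-CreER and so carried the targeted allele as well. Both were of strain C57BL/6, and the labels do not say where the allele breaks the gene. Before counting, the epithelium had been parted from the muscle layer by forceps and enzymes. There was no replicate of either group, so no p-value is given, and every interval below is a 95% interval that covers counting error only.

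Desmosomes are junctions that tie the keratin filaments of neighbouring epithelial cells together. Desmogleins (Dsg) and desmocollins (Dsc) are cadherins that cross the membrane and bind their counterparts on the next cell. Plakoglobin (Jup) and the plakophilins (Pkp) hold the cadherin tails, and desmoplakin (Dsp) links this plaque to keratins. Perp is a membrane protein of desmosomes and a known p63 target in mouse skin. In stratified epithelia the cadherin and plakophilin paralogs are used in different layers, while Dsg2 and Pkp2 are the paralogs known from simple epithelia and the heart.

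Cells with at least 500 genes, at least 1000 unique molecular identifiers (UMIs) and no more than 10% mitochondrial UMIs entered the analysis. After removal of called doublets, 2375 p63-KO cells and 5519 wild-type cells remained, of which 1686 and 5371 were epithelial-like. The epithelial-like cells had a median of 25333 UMIs in p63-KO and 11050 in the wild type. Their summed epithelial markers came to 10687 counts per 1e6 UMIs (CPM) in p63-KO and 14040 CPM in the wild type, with 0 of 8 markers at 0. Summed fibroblast markers stood at 563 CPM in p63-KO and 50.4 CPM in the wild type, and their part in the results was not tested. The libraries shared 8 barcodes. Trp63 itself had 118 CPM in p63-KO and 302 CPM in the wild type, and UMIs from 3' ends do not check which part of the gene was lost.

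RNA of most desmosome genes was lower in p63-KO epithelium, and that of 1 plakophilin was higher. CPM were computed from UMIs summed over all epithelial-like cells of a library, and log2 ratios were taken with 1 CPM added to each side. A gene is counted as lower or higher where this ratio is at least 2-fold, and as measured where it has at least 5 CPM in either library. The 10 genes together had 950 CPM in p63-KO and 3415 CPM in the wild type. Of the 10, 8 were lower in p63-KO, beside 7.96% of all 11768 measured genes, and 1 was higher, beside 14.0% of them. The median log2 ratio of the 10 was -1.30, and that of all measured genes was -0.02. The genes that stood apart within their own family were Dsg2, which was 1.54-fold lower and missed the threshold, and Pkp2, which was 9.22-fold higher.

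**Figure D1:**
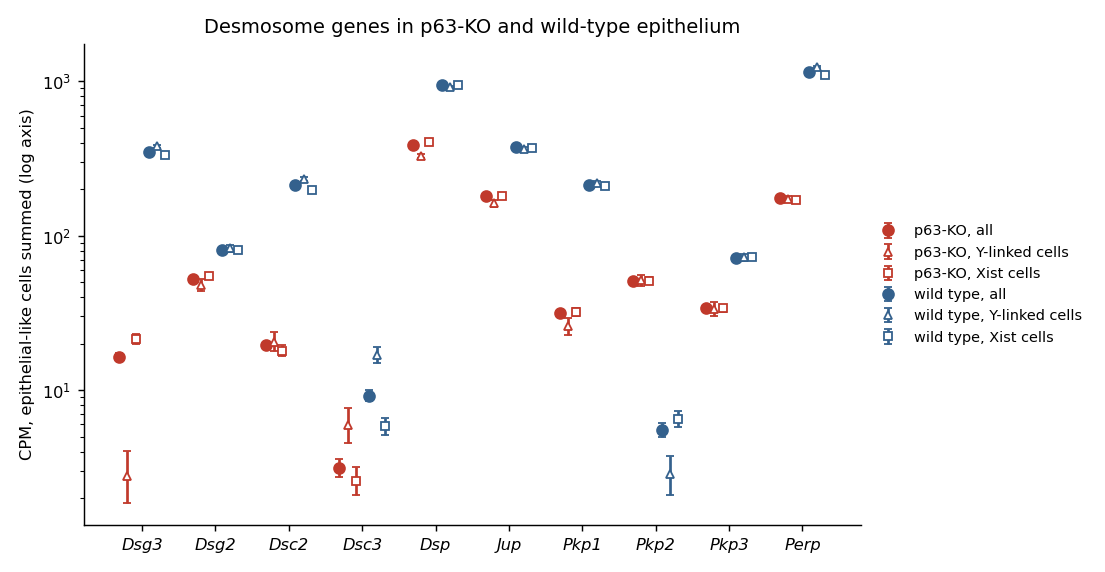
CPM of the 10 desmosome genes (log axis) in epithelial-like cells of p63-KO (red) and the wild type (blue), with 95% Poisson intervals. Filled circles are all cells of a library, triangles are cells with Y-linked and no Xist UMIs, and squares are cells with Xist and no Y-linked UMIs. In p63-KO, Dsg3 stood at 2.79 CPM in Y-linked cells and 21.4 CPM in Xist cells, while Pkp2 stood at 51.4 and 51.3 CPM.

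Of the desmogleins, Dsg3 was far lower in p63-KO. Dsg3 (ENSMUSG00000056632, chromosome 18, 20510274 to 20547459, plus strand, mm10) had 16.4 CPM (15.5 to 17.4) in p63-KO and 351 CPM (347 to 356) in the wild type, 21.4-fold lower (20.2 to 22.7), a log2 ratio of -4.34. Dsg2 (ENSMUSG00000044393, chromosome 18, 20558074 to 20604521, plus strand), the neighbouring gene, had 52.5 CPM (50.9 to 54.2) in p63-KO and 81.0 CPM (78.8 to 83.1) in the wild type. An annotated antisense gene, Gm16090, overlaps Dsg2, and whether strand was used in counting is not known here. The interval of the Dsg2 fold, 1.48 to 1.61, lay far from that of Dsg3.

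The remaining Dsg3 RNA of p63-KO was uneven over cell states. It stood at 48.1 CPM (43.3 to 53.2) in the mucous-like subcluster 7, 39.6 CPM (32.9 to 47.2) in the ciliated-like subcluster 9 and 27.2 CPM (23.7 to 31.1) in the suprabasal-like subcluster 3. It was 17.1 CPM in subcluster 5, 8.79 CPM in the cycling-like subcluster 4, 7.44 CPM in the ionocyte-like subcluster 6 and 6.22 CPM in subcluster 1. The 2 neuroendocrine-like subclusters were lowest, with 1 UMI in subcluster 8 and 0 UMIs in subcluster 2, which allows at most 1.01 CPM by the exact limit. Neighbours in this order whose intervals overlapped were subclusters 7 and 9, subclusters 6, 1 and 4, and subclusters 8 and 2.

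Within p63-KO, Dsg3 also differed between cells with Y-linked RNA and cells with Xist RNA. Both kinds of cell in each library show that each pooled embryos of both sexes, and sex and embryo cannot be told apart. Dsg3 had 2.79 CPM (1.86 to 4.04) in the 396 p63-KO cells with Y-linked and no Xist UMIs and 21.4 CPM (19.9 to 23.0) in the 913 p63-KO cells with Xist and no Y-linked UMIs, 7.66-fold lower. The same order held within the suprabasal-like subcluster 3, with 7.68 CPM (4.20 to 12.9) in Y-linked cells and 45.9 CPM (39.4 to 53.1) in Xist cells. It also held within subcluster 1, with 1.47 CPM (0.401 to 3.77) in Y-linked cells and 9.20 CPM (7.08 to 11.7) in Xist cells. In the wild type Dsg3 stood at 379 CPM (370 to 388) in Y-linked cells and 335 CPM (329 to 340) in Xist cells. Of 11523 genes measured in this split of p63-KO, 1.02% were at least 2-fold lower in Y-linked cells, and Dsg3 was the 1 desmosome gene among them. The Dsg3 log2 ratio of p63-KO over wild type was therefore -6.65 among Y-linked cells and -3.91 among Xist cells, against -4.34 over all. Median depth was 20358 UMIs in Y-linked and 23415 UMIs in Xist cells of p63-KO.

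Of the desmocollins, Dsc2 was lower in p63-KO throughout, and Dsc3 was found mainly in 1 cell state. Dsc2 (ENSMUSG00000024331, chromosome 18, 20030633 to 20059554, minus strand) had 19.6 CPM (18.6 to 20.6) in p63-KO and 212 CPM (209 to 216) in the wild type, 10.8-fold lower (10.3 to 11.5). Over the 9 p63-KO subclusters it ran from 13.9 CPM in the neuroendocrine-like subcluster 2 to 32.3 CPM in the ionocyte-like subcluster 6, a range of 2.32-fold, against 37.6 to 528 CPM and 14.0-fold in the wild type. All 9 p63-KO levels lay below all 9 wild-type levels, though not all beyond counting error. The interval of the ionocyte-like cells (28.35 to 36.6 CPM) overlapped those of the cycling-like wild-type subclusters 5 (33.14 to 42.54 CPM) and 8 (36.1 to 48.7 CPM).

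Dsc3 (ENSMUSG00000059898, chromosome 18, 19960930 to 20002351, minus strand) had 3.12 CPM (2.73 to 3.55) in p63-KO and 9.22 CPM (8.51 to 9.96) in the wild type, 2.95-fold lower. Ionocytes are cells rich in ion transporters and proton pumps, and the subcluster called ionocyte-like was led by genes such as Atp6v0d2 and Ascl3. It held 172 cells, 10.2% of the p63-KO epithelial-like cells, and 189 of their 227 Dsc3 UMIs, 83.3% (77.8 to 87.9). Its Dsc3 level was 25.1 CPM (21.7 to 29.0), followed by 3.88 CPM (1.42 to 8.44) in the neuroendocrine-like subcluster 8, and the other 7 did not exceed 1.28 CPM. The highest wild-type level was 17.1 CPM (14.1 to 20.4) in subcluster 4. Among Y-linked cells these 2 levels had intervals that overlapped, at 36.0 CPM (27.1 to 46.9) in the ionocyte-like cells of p63-KO and 34.4 CPM (25.8 to 45.02) in wild-type subcluster 4. Among Xist cells they were 25.4 CPM (20.1 to 31.7) in p63-KO and 11.3 CPM (8.45 to 14.8) in the wild type. Without the ionocyte-like cells p63-KO had 0.583 CPM (0.412 to 0.7999), 15.8-fold lower than the wild type, a log2 ratio of -2.69 instead of -1.31. This split was chosen after the levels had been seen. A joint cluster of 66 wild-type and 14 p63-KO cells also had Ascl3 and Atp6v0d2 among its leading genes. It stayed unnamed, with a median of 2718 UMIs, and is not among the epithelial-like cells. All 136 unnamed wild-type cells together had 1 Dsc3 UMI, 2.52 CPM (0.0638 to 14.0), where 3 counts would be 7.55 CPM. They include 70 cells of another unnamed joint cluster, led by genes such as Ube2c and Aurkb. This value therefore does not give the Dsc3 level of the wild-type cells with Ascl3 and Atp6v0d2.

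Dsc3 was higher in Y-linked cells of both libraries. It had 5.99 CPM (4.57 to 7.70) in Y-linked and 2.58 CPM (2.09 to 3.16) in Xist cells of p63-KO. In the wild type it had 16.8 CPM (14.95 to 18.89) in Y-linked and 5.85 CPM (5.15 to 6.62) in Xist cells, 2.88-fold higher (2.42 to 3.42), where 0.184% of 10852 measured genes were at least 2-fold higher. Between Y-linked and Xist cells the intervals given for the ionocyte-like cells of p63-KO overlapped, and those for wild-type subcluster 4 did not. The ionocyte-like subcluster held 52 of the 396 Y-linked and 75 of the 913 Xist cells of p63-KO. It held 55 of the 60 Dsc3 UMIs of those Y-linked cells and 78 of the 94 of those Xist cells. The part of this mix in the p63-KO difference was not tested.

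RNA of the shared plaque proteins was lower by less than that of the cadherins Dsg3 and Dsc2. Dsp (ENSMUSG00000054889, chromosome 13, 38151294 to 38198577, plus strand) had 385 CPM (381 to 390) in p63-KO and 947 CPM (940 to 954) in the wild type, 2.46-fold lower (2.43 to 2.49). Jup (ENSMUSG00000001552, chromosome 11, 100368958 to 100397763, minus strand), which also serves adherens junctions, had 181 CPM (178 to 184) in p63-KO and 374 CPM (369 to 378) in the wild type, 2.07-fold lower (2.02 to 2.11). Jup lay close to the 2-fold threshold, at a log2 ratio of -1.04. An annotated gene on the opposite strand, Gm10129, overlaps Dsp. The 250 bases before the RefSeq start of these 2 genes are shown because they alone of the 10 members were matched in the RefSeq table. The build is GRCm38.p6, the same as mm10. They lie at chr13:38151044-38151293 on the plus strand and chr11:100397791-100398040 on the minus strand. The Jup window does not adjoin the gene bounds given above, which end at 100397763.
Dsp: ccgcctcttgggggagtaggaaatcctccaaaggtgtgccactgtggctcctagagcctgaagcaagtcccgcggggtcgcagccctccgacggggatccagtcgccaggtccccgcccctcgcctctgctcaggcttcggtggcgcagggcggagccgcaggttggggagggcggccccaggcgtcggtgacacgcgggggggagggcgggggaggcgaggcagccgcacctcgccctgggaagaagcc
Jup: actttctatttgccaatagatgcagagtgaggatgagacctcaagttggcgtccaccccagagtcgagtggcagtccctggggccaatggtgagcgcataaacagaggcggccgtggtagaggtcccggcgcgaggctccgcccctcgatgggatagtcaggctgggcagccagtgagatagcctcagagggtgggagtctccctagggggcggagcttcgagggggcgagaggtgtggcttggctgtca
No capitals are set because no searched motif was found on either strand. The motifs were CNNGNNNNNNCNNG, a loose form of the paired half-sites that p53-family proteins such as p63 bind, its strict form CATGNNNNNNCATG, which is contained in it, and the AP-1 motif TGANTCA. Of 32851 windows of the same length in the table, 63.5% held the loose form, 0.490% the strict form and 6.75% the AP-1 motif. The windows had a GC content of 72.4% for Dsp and 62.0% for Jup, beside a median of 52.4% over all windows. The absence of these letters from this window says nothing of binding elsewhere.

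Over cell states, Dsp in p63-KO ran from 244 CPM (228 to 260) in the neuroendocrine-like subcluster 2 to 449 CPM (434 to 464) in the suprabasal-like subcluster 3. The lowest wild-type level, 432 CPM (417 to 448) in the cycling-like subcluster 5, lay within that span. Jup in p63-KO ran from 78.7 CPM in the neuroendocrine-like subcluster 2 to 220 CPM in the suprabasal-like subcluster 3, against 159 to 657 CPM in the wild type. The Jup levels of 7 p63-KO subclusters lay within the 159 to 253 CPM of the 3 cycling-like wild-type subclusters, and the Dsp level of 1 p63-KO subcluster lay within the 432 to 653 CPM of those.

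The plakophilins, armadillo proteins of the plaque, went in different directions. Pkp1 (ENSMUSG00000026413, chromosome 1, 135871395 to 135919207, minus strand), the plakophilin of stratified epithelia, had 31.8 CPM (30.5 to 33.1) in p63-KO and 214 CPM (211 to 218) in the wild type, 6.74-fold lower (6.45 to 7.05). A gene annotated on the same strand, Gm36938, overlaps it. Pkp3 (ENSMUSG00000054065, chromosome 7, 141078218 to 141090510, plus strand), known from most desmosome-bearing epithelia, had 34.1 CPM (32.7 to 35.4) in p63-KO and 72.2 CPM (70.2 to 74.2) in the wild type, 2.12-fold lower (2.02 to 2.23). Pkp2 (ENSMUSG00000041957, chromosome 16, 16213318 to 16272712, plus strand) had 51.1 CPM (49.5 to 52.8) in p63-KO and 5.54 CPM (5.00 to 6.13) in the wild type, 9.22-fold higher (8.29 to 10.3).

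Pkp2 was the most even of the 10 genes over the p63-KO states. Its 9 levels ran from 43.4 CPM (38.9 to 48.3) in the mucous-like subcluster 7 to 55.3 CPM (51.5 to 59.3) in subcluster 1, a range of 1.27-fold. The intervals of the 8 subclusters other than subcluster 7 all overlapped, the neuroendocrine-like subcluster 2 (44.7 CPM, 38.1 to 52.1) included. In the wild type Pkp2 was highest in the ciliated-like subcluster 9, with 23.4 CPM (13.7 to 37.5) from 26 cells, and in the superficial-like subcluster 2, with 16.6 CPM (14.6 to 18.7). It had 6.33 CPM (4.81 to 8.19) in the suprabasal-like subcluster 3, and the other 6 did not exceed 2.40 CPM. The lowest p63-KO level lay above the highest wild-type level. In the wild type it had 2.85 CPM (2.10 to 3.76) in Y-linked and 6.48 CPM (5.74 to 7.29) in Xist cells, and in p63-KO 51.4 and 51.3 CPM in those cells.

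Perp (ENSMUSG00000019851, chromosome 10, 18845020 to 18857073, plus strand) had 176 CPM (173 to 179) in p63-KO and 1149 CPM (1141 to 1157) in the wild type, 6.54-fold lower (6.42 to 6.66). Its p63-KO levels ran from 16.1 CPM (12.2 to 20.7) in the neuroendocrine-like subcluster 2 and 52.3 CPM (41.6 to 65.1) in the neuroendocrine-like subcluster 8 to 257 CPM (246 to 269) in the suprabasal-like subcluster 3. The other 6 subclusters lay between 145 and 202 CPM. The wild-type levels ran from 475 CPM (458 to 491) in the cycling-like subcluster 5 to 2282 CPM (2251 to 2313) in the suprabasal-like subcluster 3, so all p63-KO states were below all wild-type states.

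Comparing cells given the same state name narrowed some differences and not others. Named states in both libraries were the suprabasal-like, cycling-like and ciliated-like ones. Suprabasal-like cells numbered 241 in p63-KO and 671 in the wild type, and ciliated-like cells 53 in p63-KO and 26 in the wild type. Cycling-like cells numbered 217 in p63-KO subcluster 4 and 1450 in wild-type subclusters 5, 7 and 8. The states were clustered without the junction genes and named from markers. Naming set a subcluster against the other cells of its own library, so a shared name does not make marker levels alike. Suprabasal-like cells had 9438 CPM of suprabasal and 151 CPM of superficial markers in p63-KO, and 26013 and 2601 CPM in the wild type. Basal markers of cycling-like cells had 5247 CPM in p63-KO and 10642 to 13400 CPM in the wild type. Ciliated-like cells of p63-KO had 3951 CPM of suprabasal, 105 CPM of superficial and 2850 CPM of basal markers. Those of the wild type had 9753, 1418 and 5113 CPM. The part of these gaps in the ratios was not tested. Among suprabasal-like cells 7 desmosome genes were lower in p63-KO, beside 9.05% of all measured genes, and 1 was higher, beside 12.5%, with a median log2 ratio of -2.12. Among cycling-like cells 5 were lower, beside 12.5%, and 1 was higher, beside 13.9%, with a median of -1.03. Among ciliated-like cells 6 were lower, beside 10.1%, and 1 was higher, beside 11.8%, with a median of -1.30.

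Of these 3 states, Jup and Dsp differed least between the libraries in the cycling one. Jup had 193 CPM in p63-KO and 202 CPM in wild-type cycling-like cells, with a log2 ratio of -0.07 (-0.14 to 0.00), and Dsp had 376 CPM in p63-KO and 521 CPM in the wild type, 1.39-fold lower. Dsc2 was 2.19-fold lower among these cells and 22.3-fold lower among suprabasal-like cells, where it had 23.7 CPM in p63-KO and 528 CPM in the wild type. Dsg3, by contrast, was 17.8-fold lower (8.79 CPM in p63-KO, 156 CPM in the wild type) among cycling-like and 29.6-fold lower among suprabasal-like cells. Pkp2 was 59.2-fold higher (36.2 to 104) among cycling-like cells, with 51.9 CPM in p63-KO and 0.876 CPM in the wild type, and 2.09-fold higher (1.26 to 3.67) among ciliated-like cells, with 48.9 CPM in p63-KO and 23.4 CPM in the wild type. Among suprabasal-like cells Dsg2 had 54.5 CPM in p63-KO and 61.3 CPM in the wild type, and the interval of its log2 ratio held 0 (-0.35 to 0.01).

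**Figure D2:**
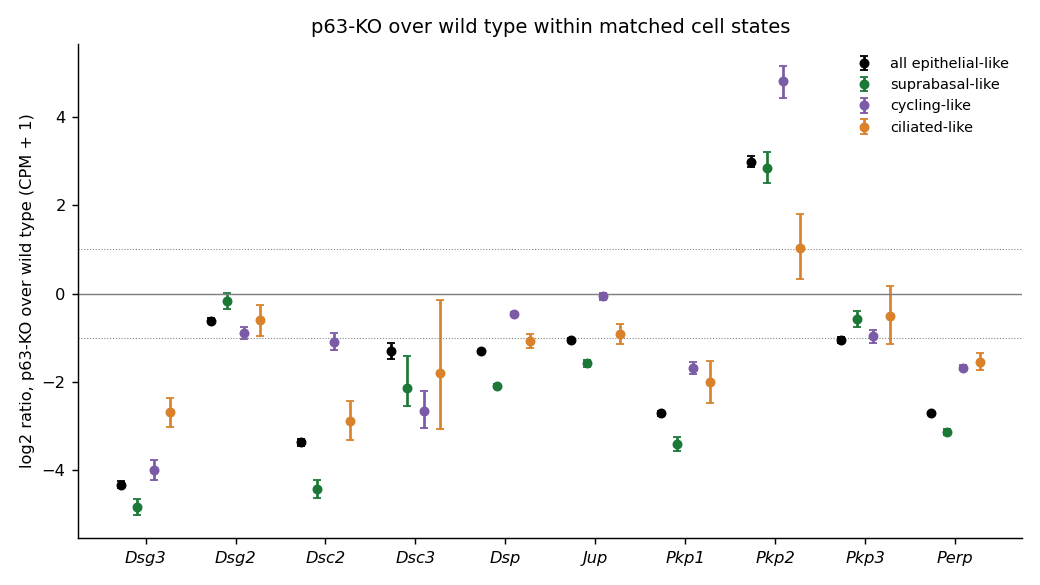
Log2 ratio of p63-KO over wild type with 1 CPM added, for each gene in all epithelial-like, suprabasal-like, cycling-like and ciliated-like cells, with 95% intervals from counting error. Dotted lines mark 2-fold. Pkp2 lay above 0 in all 4 and reached 4.82 among cycling-like cells, while Jup ran from -1.58 among suprabasal-like to -0.07 among cycling-like cells.

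In the wild type, RNA of some desmosome genes was higher in upper than in basal layers and that of others was not. The 10 together had 1497 CPM in the cycling-like subcluster 5, 2025 CPM in the basal-like subcluster 6, 3543 CPM in subcluster 4, 6788 CPM in the suprabasal-like subcluster 3 and 5228 CPM in the superficial-like subcluster 2. Subcluster 1, the largest with 1406 cells, met no naming rule. It had 12103 CPM of summed basal markers, beside 13989 CPM in the basal-like subcluster 6. This sum did not separate the layers, with 14750 CPM in the superficial-like subcluster 2 and 10981 CPM in the suprabasal-like subcluster 3. Summed suprabasal markers had 1785 CPM in subcluster 1, 2854 CPM in subcluster 6 and 26013 CPM in subcluster 3. Of the basal-like cells, 24 had Y-linked and no Xist UMIs and 428 had Xist and no Y-linked UMIs, beside 504 and 727 in subcluster 1, so the basal-like subcluster was made up mostly of Xist cells. The part of this in the layer differences was not tested.

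Set against basal-like cells, superficial-like cells had 6 desmosome genes higher, beside 11.9% of 11076 measured genes, and 1 lower, beside 24.2%. The median log2 ratio of the 10 was 1.32, beside -0.43 over all measured genes. Dsc2 had 439 CPM in superficial-like and 59.3 CPM in basal-like cells, 7.40-fold higher (6.56 to 8.39). Pkp2 was 6.90-fold higher (3.79 to 14.0), with 253 UMIs in superficial-like and 11 UMIs in basal-like cells. Dsg3 was 3.32-fold, Jup 3.09-fold, Perp 2.88-fold and Dsp 2.17-fold higher. Dsc3 went the other way, with 1.31 CPM (0.7995 to 2.02) in superficial-like and 8.07 CPM (5.68 to 11.1) in basal-like cells, 6.17-fold lower. Dsg2 was 1.49-fold lower and Pkp3 1.21-fold lower, both within 2-fold.

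Most members peaked in the suprabasal-like rather than in the superficial-like cells. Against basal-like cells, 7 genes were higher in suprabasal-like cells, beside 9.45% of 10951 measured genes, and 0 were lower, beside 12.9%, a comparison added after the levels had been seen. Dsg3 had 805 CPM (786 to 823) in suprabasal-like and 539 CPM (528 to 551) in superficial-like cells. Dsp had 1928 CPM (1899 to 1956) in suprabasal-like and 1313 CPM (1295 to 1332) in superficial-like cells, and Pkp1 439 CPM (425 to 452) in suprabasal-like and 285 CPM (277 to 294) in superficial-like cells. Perp, Dsc2 and Jup were also highest in suprabasal-like cells, with 2282, 528 and 657 CPM there. Of the members higher than in basal-like cells, Pkp2 alone was higher in superficial-like than in suprabasal-like cells, and Dsg2 did not differ between these layers beyond its intervals (56.3 to 66.5 CPM in suprabasal-like and 56.5 to 64.3 CPM in superficial-like cells).

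Ordering the wild-type cells by markers instead of clusters gave like directions between basal and upper layers. The 5371 cells were put in 5 bins of equal size by the share of suprabasal and superficial marker UMIs among all layer marker UMIs, whose median ran from 6.06% to 74.5%. This share pools suprabasal with superficial markers, so the bins cannot show in which of these layers a gene peaks. Dsc2 had 30.8, 37.1, 51.7, 226 and 502 CPM from the lowest to the highest bin. Dsg3 had 147, 146, 165, 368 and 683 CPM, so that it was nearly level over the first 3 bins and then higher. Pkp2 had 0.820, 1.12, 0.833, 7.58 and 12.1 CPM. Dsc3 had 12.5, 11.2, 13.6 and 10.4 CPM in the first 4 bins and 2.76 CPM in the highest. Pkp3 stayed between 67.9 and 76.8 CPM, and Dsg2 stood at 85.6 to 91.4 CPM in the first 4 and at 60.0 CPM in the highest.

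**Figure D3:**
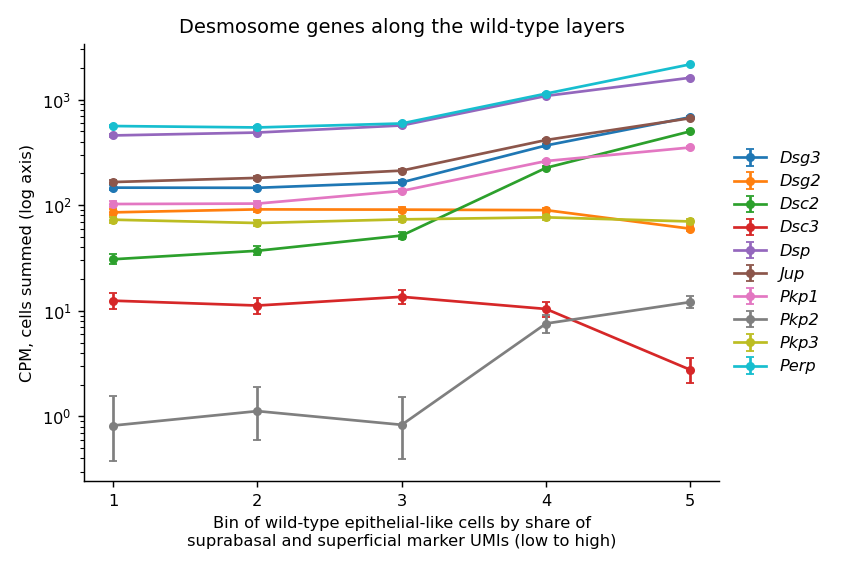
CPM (log axis) of each desmosome gene over 5 bins of the wild-type epithelial-like cells, ordered by the share of suprabasal and superficial markers among layer marker UMIs, with 95% Poisson intervals. Dsc2 was 30.8 CPM in the lowest and 502 CPM in the highest bin, Pkp3 was level, and Dsc3 was 12.5 CPM in the lowest and 2.76 CPM in the highest.

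At the main resolution the summed desmosome RNA spanned a narrower range over p63-KO than over wild-type subclusters, while single genes went both ways. The 10 genes together ran from 462 CPM in the neuroendocrine-like subcluster 2 to 1175 CPM in the suprabasal-like subcluster 3, 2.55-fold, and the wild-type span was 4.53-fold. All p63-KO sums were below the lowest wild-type sum of 1497 CPM. Clustering more finely widened the p63-KO span to 6.47-fold and left the wild-type span at 4.29-fold, so the narrower range of the sum depended on the resolution. Of the single genes, Perp (16-fold, beside 4.81-fold in the wild type), Pkp1 (8.75 beside 4.30) and Pkp3 (5.40 beside 2.52) had wider ranges in p63-KO. Dsg2, Dsc2, Dsp, Jup and Pkp2 had narrower ones. Dsg3 and Dsc3 had 0 UMIs in p63-KO subcluster 2, so no fold was taken.

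The neuroendocrine-like subcluster 2, 260 cells led by Chgb and Scg2 with a median of 13942 UMIs, had a desmosome RNA profile of its own. These hormone- and peptide-storing cells had 16.1 CPM of Perp, 4.63 CPM (2.70 to 7.41) of Pkp1, 9.53 CPM (6.64 to 13.3) of Pkp3 and 0 UMIs of Dsg3 and Dsc3. Low Dsc3 was not particular to them. Their 0 UMIs allow up to 1.005 CPM, and p63-KO subclusters 1, 3, 4, 5 and 7 had 0.0707 to 0.984 CPM. In subcluster 2, Dsg2 (50.4 CPM, 43.4 to 58.2), Pkp2 (44.7 CPM) and Dsc2 (13.9 CPM) were within or next to the range of the other p63-KO states. Trp63 had 3.54 CPM in these cells and 41.4 to 172 CPM in the other 8 p63-KO subclusters. The second neuroendocrine-like subcluster, number 8, with 84 cells rich in Gzma, had Perp at 52.3 CPM and 1 UMI of Dsg3, but Pkp1 at 34.9 CPM (26.2 to 45.5), within the range of the other states. Leaving subcluster 2 out moved the p63-KO level of Perp to 184 CPM, of Jup to 186 CPM and of Dsp to 393 CPM.

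**Figure D4:**
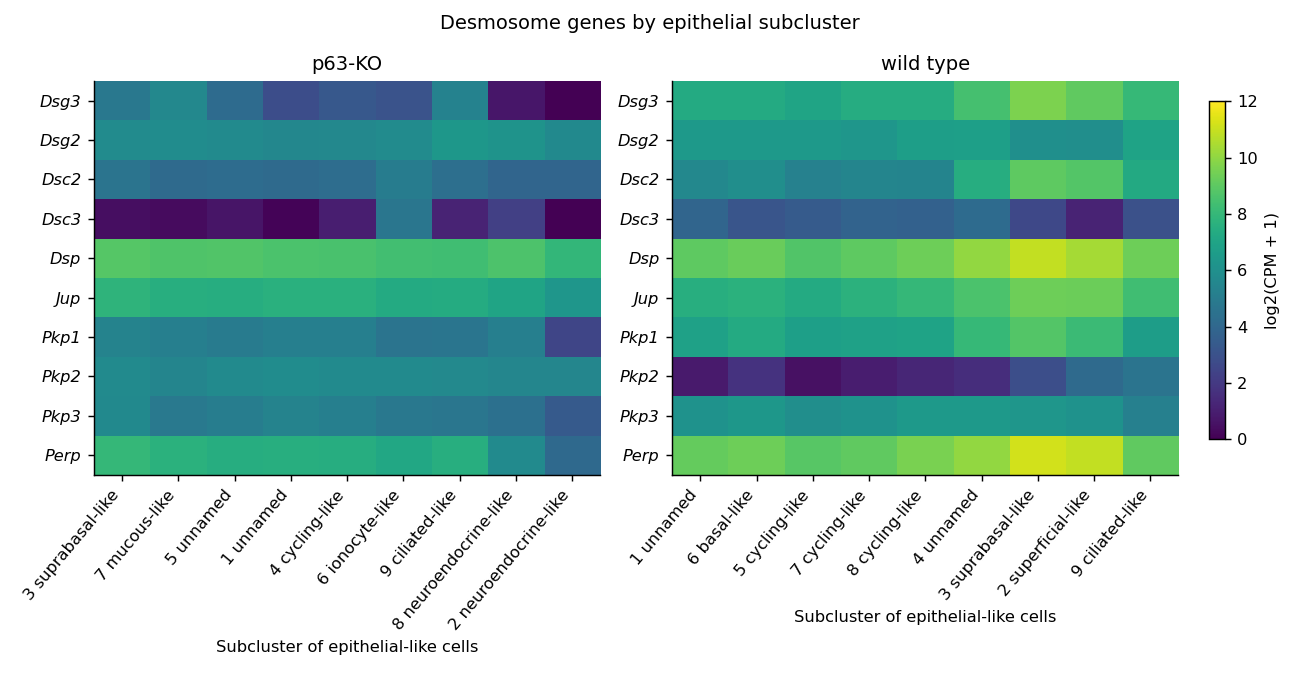
Log2(CPM + 1) of the 10 desmosome genes in the 9 epithelial-like subclusters of p63-KO (left) and of the wild type (right), numbered by size. Pkp2 was even over p63-KO, Dsc3 was bright there in the ionocyte-like subcluster at 25.1 CPM, and most genes peaked in the suprabasal-like subcluster of the wild type.

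The RNA make-up of each protein family shifted with these levels. Since UMIs tag 3' ends, shares were taken from UMI numbers without scaling by length. Dsg3 made up 23.8% (22.6 to 25) of Dsg2 and Dsg3 UMIs in p63-KO and 81.3% (80.8 to 81.7) in the wild type. Over states this share ran from 0% in the neuroendocrine-like subcluster 2 (upper limit 1.97%) to 45.8% in the mucous-like subcluster 7 of p63-KO, and from 59.6% in the cycling-like subcluster 5 to 92.9% in the suprabasal-like subcluster 3 of the wild type. Every p63-KO state thus had more Dsg2 than Dsg3 UMIs, and every wild-type state more Dsg3 than Dsg2.

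Among plakophilins, Pkp2 had 43.7% (42.6 to 44.8) of UMIs in p63-KO and 1.90% (1.71 to 2.10) in the wild type. Pkp1 had 27.2% (26.2 to 28.1) in p63-KO and 73.4% (72.8 to 74.0) in the wild type, while Pkp3 had 29.1% (28.2 to 30.1) in p63-KO and 24.7% (24.1 to 25.3) in the wild type. Pkp2 held the largest share in all 9 p63-KO subclusters, from 36.1% in the suprabasal-like to 75.9% in the neuroendocrine-like subcluster 2, although in the suprabasal-like one Pkp3, at 35.8%, had an interval that overlapped, as did Pkp1 (34.6%, beside 44.9% for Pkp2) in the neuroendocrine-like subcluster 8. Pkp1 held the largest share in all 9 wild-type subclusters, from 57.5% to 84.0%. Dsc3 made up 13.7% (12.1 to 15.5) of desmocollin UMIs in p63-KO and 4.16% (3.85 to 4.49) in the wild type, and 43.8% in the ionocyte-like cells.

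**Figure D5:**
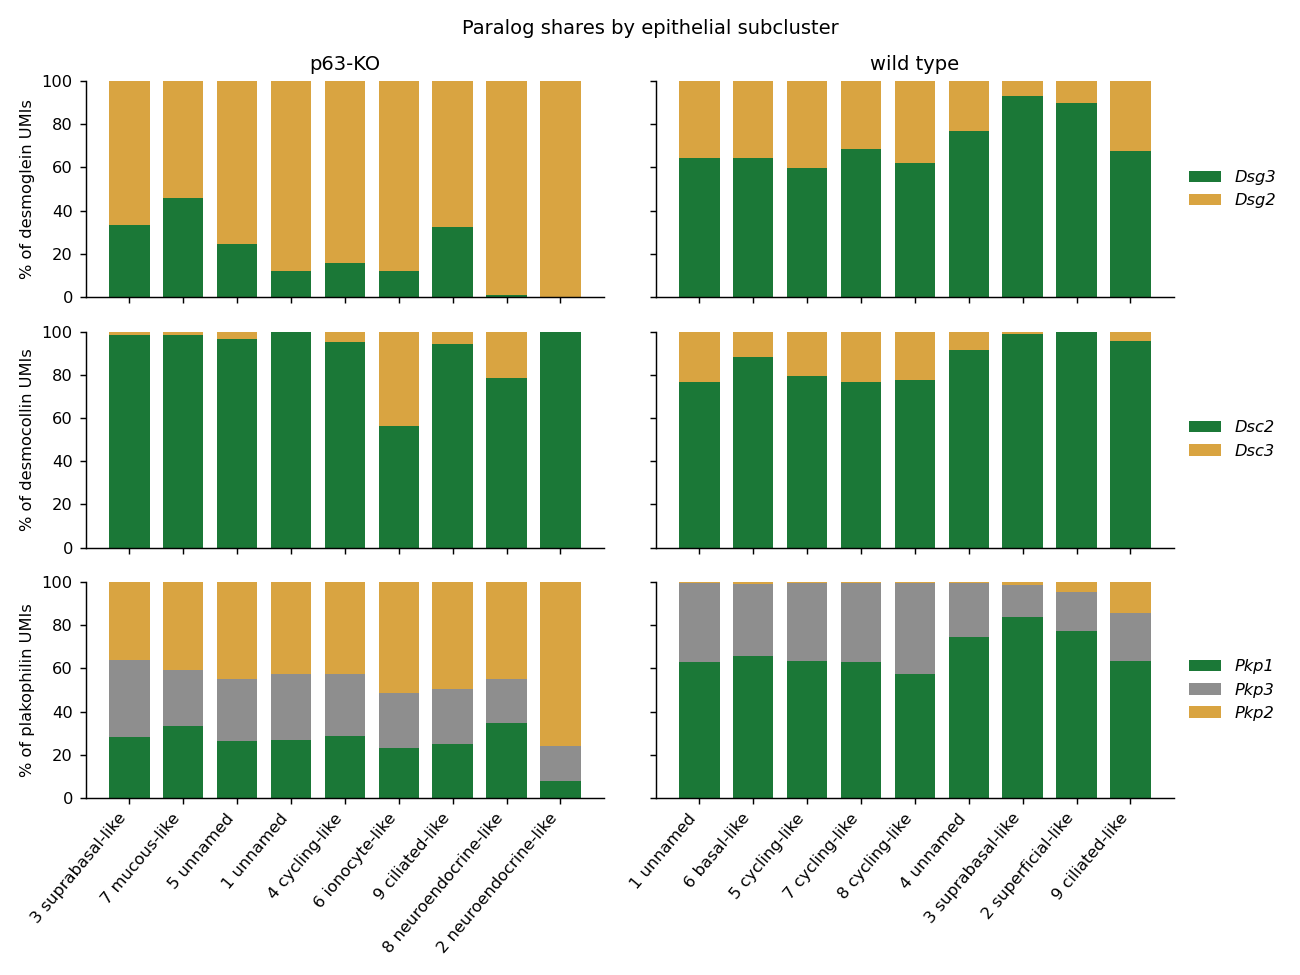
Share (%) of each paralog in the UMIs of its family, for the epithelial-like subclusters of p63-KO (left) and the wild type (right). Dsg3 (green, top) made up at most 45.8% in p63-KO and at least 59.6% in the wild type, and Pkp2 (yellow, bottom) at least 36.1% in p63-KO and at most 14.5%, in the ciliated-like cells, in the wild type.

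The shares of cells with a UMI followed the summed levels at equal depth. After every cell was thinned to 2000 UMIs, 1662 p63-KO and 5283 wild-type epithelial-like cells remained, and 498 fibroblast-like cells of p63-KO, a type without desmosomes, served as the background. Pkp2 was found in 9.45% (8.08 to 10.96) of p63-KO and 0.738% (0.526 to 1.01) of wild-type cells, and in 0.201% of the fibroblast-like cells. Without thinning the Pkp2 shares were 69.0% in p63-KO and 5.51% in the wild type. Dsg3 was found in 1.63% (1.07 to 2.36) of p63-KO and 38.3% (37.0 to 39.6) of wild-type cells, and in 0 of 498 fibroblast-like cells, for which 3 counts would be 0.602% and the exact upper limit is 0.738%. Unthinned, its shares were 20.9% in p63-KO and 80.6% in the wild type. Perp was found in 25.6% (23.6 to 27.8) of p63-KO and 77.4% (76.2 to 78.5) of wild-type cells, and in 0.402% of the fibroblast-like cells, and without thinning in 80.7% of p63-KO and 97.9% of wild-type cells. Median depth of the fibroblast-like cells was 10890 UMIs.

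Outside the epithelium desmosome RNA was scarce, apart from Jup in vessel cells. In p63-KO the 10 genes together had 29.97 CPM in 501 fibroblast-like cells, 74.1 CPM in 74 smooth muscle- or pericyte-like cells and 175 CPM in 70 endothelial-like cells. Jup made up most of the last, with 145 CPM (124 to 170), and plakoglobin is known from the adherens junctions of endothelium. Dsp had 14.7 CPM (8.41 to 23.9) there and 6.92 CPM (4.92 to 9.45) in fibroblast-like cells. In 19 immune-like cells of p63-KO the 10 genes had 69.7 CPM, with Jup at 47.7 CPM (25.4 to 81.5). Too few cells of these types were in the wild type for the same values. The 136 unnamed wild-type cells, whose type is not known, had 775.5 CPM of the 10 genes.

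Other genes of the cell-cell junctions were described from lists chosen with earlier results of these data known. Of 9 other desmosome genes 3 were measured, and 2 of these were lower in p63-KO, beside 7.96% of all measured genes. Evpl (envoplakin) had 54.3 CPM in p63-KO and 208 CPM in the wild type, 3.83-fold lower, and Ppl (periplakin) had 187 CPM in p63-KO and 414 CPM in the wild type, 2.21-fold lower. Both are plakins of the cornified envelope that also bind desmosomes. Pkp4, a relative of the plakophilins found at adherens junctions and desmosomes, had 506 CPM in p63-KO and 379 CPM in the wild type. The 6 genes that were not measured, among them the Dsg1 copies, had at most 3.18 CPM in either library.

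Of 9 adherens junction genes, all measured, 3 were lower in p63-KO, beside 7.96% of all measured genes, and 1 was higher, beside 14.0%. Their median log2 ratio was 0.20. P-cadherin (Cdh3), a cadherin of basal cells, was 19.3-fold lower, with 3.38 CPM in p63-KO and 65.4 CPM in the wild type. The nectins Nectin1 and Nectin4 were 5.84-fold and 2.05-fold lower. Vinculin (Vcl), which links junctions to actin, was 3.13-fold higher, with 603 CPM in p63-KO and 193 CPM in the wild type. Alpha-catenin (Ctnna1) had 528 CPM in p63-KO and 374 CPM in the wild type. Of 12 keratins, the filaments that desmosomes anchor, 7 were lower and 3 higher, beside the same 7.96% and 14.0%, with a median of -1.29. The 2 with the lowest ratios, both basal keratins, were Krt5 with 17 UMIs in p63-KO and 52585 in the wild type, and Krt14 with 67 UMIs in p63-KO and 20432 in the wild type. Krt15, also found in basal cells, had the smallest fold of the 7 that were lower. Krt6a and Krt17 were 58.6-fold and 51.2-fold lower, and Krt18 and Krt20 6.99-fold and 6.20-fold higher. The abundant Krt15, Krt13 and Krt4 were 2.16-fold, 2.78-fold and 3.32-fold lower, Krt8 was 2.50-fold higher, and Krt7 and Krt19 were within 2-fold, with 1140 and 1015 CPM in p63-KO and 618 and 960 CPM in the wild type.

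Genes with the most similar levels were ranked by Pearson's r of log2(CPM + 1) over the 9 subclusters of each library, as a description over points that share a library. For Perp these were Mal, Sfn and Gabrp in p63-KO (r of 0.998, 0.997 and 0.995) and Sfn, Usp53 and S100a14 in the wild type (0.989, 0.986 and 0.984), so that Sfn was found in both. For Dsg3 they were Alox15, Psca and Pigu in p63-KO and Dlg2, Spryd3 and Rab3d in the wild type, all at 0.970 or more. For Dsp they were Zdhhc9, Ggh and Litaf in p63-KO and Gng12, Ptpn13 and Mark2 in the wild type, at 0.964 or more. For Dsg2 they were Iars2, Eif2b2 and Myb in p63-KO (0.896 or more) and Ddt, Gnas and Rae1 in the wild type (0.931 or more). For Pkp2 they were Nedd4l, Eva1c and Tpr in p63-KO (0.887 or more) and Gsto2, Gabarapl2 and Rhobtb1 in the wild type (0.982 or more). In p63-KO the Pkp2 levels ranged over only 1.27-fold with mostly overlapping intervals, so its ranking there rests on differences largely within counting error. The genes compared numbered 5818 in p63-KO and 5776 in the wild type. These rankings were not repeated without the neuroendocrine-like subcluster 2, where Perp had its lowest p63-KO level, 16.1 CPM.

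Over the same subclusters Trp63 went with some members and not with others. In p63-KO its r was 0.97 with Jup, 0.96 with Pkp3, 0.94 with Perp, 0.92 with Pkp1 and 0.81 with Dsp. It was 0.67 with Dsg3 and with Pkp2, 0.42 with Dsc2, 0.06 with Dsc3 and -0.11 with Dsg2. In the wild type its r was -0.95 with Pkp2, -0.77 with Dsc2, -0.71 with Jup, -0.67 with Dsg3, -0.56 with Dsp, -0.46 with Perp and -0.34 with Pkp1. It was 0.07 with Dsg2, 0.60 with Pkp3 and 0.69 with Dsc3. Without the neuroendocrine-like subcluster 2, r in p63-KO over 8 subclusters was 0.91 for Pkp3, 0.88 for Jup, 0.74 for Perp and 0.73 for Pkp2. It was 0.39 for Pkp1, 0.33 for Dsp, 0.29 for Dsg3 and 0.09 for Dsc2, and -0.56 for Dsc3 and -0.78 for Dsg2. The values of Pkp1, Dsp and Dsg3 thus rested largely on that 1 subcluster. Those of Pkp2 in p63-KO rest on a range of only 1.27-fold, largely within counting error.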

How the data were processed

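Single-cell 3' RNA was counted in 2 libraries, 1 per group. Per the labels' protocols, a 10x Genomics droplet kit was used, and the submitters' processing notes name the tool Cell Ranger 7.1.0 and the build mm10. The deposited values are UMI counts per gene and barcode, with no normalization by the authors. How introns and strand were counted, and with which annotation, is not given in the sources used here. In all, the p63-KO library had 86504624 UMIs in 2821 barcodes and the wild-type library 76472445 UMIs in 6034 barcodes, of which 2422 and 5787 passed the cell filter.

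Doublets were scored per library against simulated doublets and removed at 0.8% per 1000 cells, 47 p63-KO and 268 wild-type cells. Of 100 planted doublets 35% were called in p63-KO and 33% in the wild type, so part of them remained. Cells were clustered jointly (2000 variable genes, 30 principal components, 20 neighbours, Leiden resolution 1), and the epithelial-like cells of each library again at 0.6, without 28 junction genes among the variable ones. Naming a cluster X-like took 3 or more markers, each detected in 25% or more of its cells, and subclusters also needed a level at least 2-fold above the other cells. Intervals are exact Poisson (CPM), conditional binomial (folds) and Clopper-Pearson (shares). Coordinates are those of GENCODE M21 on GRCm38. Python 3.11.15, numpy 2.4.6, scipy 1.17.1, pandas 2.3.3, scanpy 1.11.5, scikit-learn 1.9.0, leidenalg 0.10.2 and igraph 0.11.9 were used. The ratio and interval steps were tested on simulated data.

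The members and lists were chosen with earlier results of these data known. Named were the 10 members, Trp63, up to 6 measured genes per other list at least 2-fold apart by absolute log2 ratio, any list gene of at least 500 CPM, and the 3 genes most alike to Perp, Dsg3, Dsp, Dsg2 and Pkp2 among genes of at least 50 CPM, without mitochondrial, ribosomal protein, Gm-numbered and Rik genes. Krt15, Krt13, Krt4, Krt7, Krt8 and Krt19 were named for their level of at least 500 CPM.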

Additional observations from a re-analysis of the deposited data

How the results depend on the processing

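With 1 library per group no result had a replicate check, and intervals cover counting error only. No paired analysis was possible because each group had 1 library and the labels give no replicate numbers. Under 14 alternatives the number of desmosome genes at least 2-fold lower in p63-KO stayed between 6 and 8 and the number higher at 1. No value changed sign under any alternative run. The median log2 ratio of p63-KO over wild type, -1.30, was -1.16 with 5 CPM added, -1.83 with a stricter cell filter, -1.17 in Xist cells, -1.42 in Y-linked cells and -1.90 without ciliated-like, neuroendocrine-like and ionocyte-like subclusters. The superficial-like over basal-like median, 1.32, was 1.01 with subclusters at resolution 1, 1.88 between the outer bins of the layer score and 1.52 over wild-type subcluster 1, the last chosen after seeing the data. With every cell weighing equally, the share of Dsg3 was 19.4% in p63-KO and 78.5% in the wild type, that of Dsc3 16.9% in p63-KO and 5.90% in the wild type, and that of Pkp1 25.3% in p63-KO and 71.7% in the wild type. At resolution 1 the span of the summed genes was 6.47-fold in p63-KO and 4.29-fold in the wild type. Among ciliated-like cells the number higher in p63-KO was 0 with 5 CPM added. Among single genes, Dsg3 had log2 ratios of p63-KO over wild type from -6.65 in Y-linked cells to -3.91 in Xist cells, and Dsc3 from -2.78 to -0.81. Jup (-1.29 to -0.96) and Pkp3 (-1.21 to -0.94) crossed the 2-fold threshold. The causes were not tested.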
